A study of Mus musculus with 23 samples.

Results

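Fatty acid oxidation enzymes and targets of the peroxisome proliferator-activated receptors (PPARs) were followed in E0771 tumors from never-obese, obese and formerly obese mice. The genes were taken from a list of 36 symbols, and a gene was used when the array's annotation gave a probe set for its symbol. Of the 36, 32 were measured among 19505 genes: 14 of 15 enzymes and carriers of mitochondrial beta-oxidation, 5 of 5 enzymes for unsaturated fatty acids, 6 of 6 peroxisomal proteins and 7 of 10 PPAR receptors and targets. Each of the 32 had 1 probe set, and Etfb, Ppard, Ucp2 and Acsl1 were not analysed here.

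E0771, a mouse line of triple-negative breast cancer, had been injected into the fourth mammary fat pad of female C57BL/6NCrl mice, and RNA of 23 tumors was measured on Affymetrix Clariom S arrays as log2 signal. CON-LFD tumors (n = 6) grew in never-obese mice kept on a diet with 10% of energy from fat. DIO-HFD tumors (n = 6) came from mice with diet-induced obesity that stayed on a diet with 60% of energy from fat. DIO-LFD tumors (n = 5) came from obese mice switched to the 10% fat diet, and DIO-VSG tumors (n = 6) from obese mice that underwent vertical sleeve gastrectomy, the removal of most of the stomach, and were then fed the 10% fat diet. The mice were bought at 8 weeks of age, ate their first diet for 15 weeks before surgery, received tumor cells 7 weeks after surgery and were killed 4 weeks later. All mice without gastrectomy had sham surgery, and every tumor grew from the same injected line.

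Beta-oxidation shortens fatty acids by a pair of carbons per round. Long chains enter the mitochondrion through the carnitine shuttle and pass through a dehydrogenase, a hydratase, a second dehydrogenase and a thiolase, and electrons leave through the electron transfer flavoprotein. Double bonds in unsaturated fatty acids are moved or reduced by auxiliary enzymes before the cycle can go on, and peroxisomes begin the breakdown of very long and branched chains. PPARs are nuclear receptors that bind fatty acids and their derivatives and drive transcription of many of these enzymes, and in mammary tumors the genes are expressed by cancer cells, adipocytes, macrophages and muscle.

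Several tumors stood apart from the rest before any comparison of the oxidation genes. All 28 skeletal muscle markers were measured, and their mean log2 signal per tumor ran from 4.66 to 14.36. It averaged 9.05 ± 3.09 (SD, n = 5) in DIO-LFD, 8.12 ± 4.30 in CON-LFD (n = 6), 6.68 ± 2.55 in DIO-VSG (n = 6) and 6.55 ± 1.79 in DIO-HFD (n = 6). It was above 9 in 8 tumors, of which 3 were DIO-LFD, 2 CON-LFD, 2 DIO-VSG and 1 DIO-HFD, and these are called muscle-rich. The mean of 19 adipocyte markers ran from 5.04 to 7.49, except in DIO-HFD replicate 5, where it was 11.33. The mean of 10 T cell markers was 7.70 ± 0.58 in CON-LFD, 6.89 ± 0.69 in DIO-VSG, 6.85 ± 1.29 in DIO-LFD and 6.09 ± 0.72 in DIO-HFD, and that of 17 macrophage markers was 11.86 ± 0.30, 11.25 ± 0.63, 11.54 ± 0.33 and 11.34 ± 0.47 in the same order. Endothelial markers (11 genes) averaged 7.92 ± 0.30 in DIO-HFD and 7.95 ± 0.39 in CON-LFD, and brown adipocyte markers, 4 of 8 above the limit of low signal (4.77), averaged 4.22 ± 0.15 and 4.73 ± 0.76. The highest brown adipocyte mean, 6.17, was in CON-LFD replicate 5, which also had the highest muscle mean, 14.36. Whether muscle adds to the brown adipocyte mean was not tested. Of 8 epithelial markers used to check the injected cells, 3 were above that limit. Krt8, a keratin of simple epithelia, was 12.4 ± 0.67 in DIO-HFD and 12.45 ± 0.43 in CON-LFD, and Cdh1, the adhesion protein E-cadherin, was 5.62 ± 1.11 and 5.74 ± 1.11. In whole tumors, fewer cells of a type and less RNA per cell cannot be told apart. The source name of DIO-LFD replicate 1 reads DIO-HFD, whereas that of DIO-VSG replicate 1 reads DIO-LFD. Both arrays were kept in the groups of their titles, and values without them are given where they move a result most.

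Promoter sequence was available for 27 of the 32 genes in RefSeq windows of GRCm38.p6, each running from 250 bases before to 50 bases after the transcription start. Windows of Acaa2, Angptl4, Crat, Decr1 and Hsd17b4 were not used here. The windows below belong to Ech1, which had the smallest p between obese and never-obese mice among the genes with a window, to Hadhb, which shares its promoter with Hadha, and to Pdk4, the most variable gene of the list. Each reads 5′ to 3′ on the gene's own strand, and capitals mark GGGCGG, the GC box bound by Sp family factors, on either strand.
Ech1, chr7:28825088-28825387, plus strand: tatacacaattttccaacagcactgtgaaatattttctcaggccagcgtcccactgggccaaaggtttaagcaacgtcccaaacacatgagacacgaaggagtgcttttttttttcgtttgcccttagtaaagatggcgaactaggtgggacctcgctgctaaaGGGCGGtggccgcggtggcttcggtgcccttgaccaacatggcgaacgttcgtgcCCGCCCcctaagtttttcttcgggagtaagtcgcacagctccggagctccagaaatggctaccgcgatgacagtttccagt
Hadhb, chr5:30155003-30155302, plus strand: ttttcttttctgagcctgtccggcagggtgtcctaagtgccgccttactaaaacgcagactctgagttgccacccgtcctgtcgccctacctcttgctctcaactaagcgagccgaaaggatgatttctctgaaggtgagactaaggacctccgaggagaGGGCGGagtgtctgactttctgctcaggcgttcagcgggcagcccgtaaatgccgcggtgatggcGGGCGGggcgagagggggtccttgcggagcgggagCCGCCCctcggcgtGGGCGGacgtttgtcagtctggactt
Pdk4, chr6:5496229-5496528, minus strand: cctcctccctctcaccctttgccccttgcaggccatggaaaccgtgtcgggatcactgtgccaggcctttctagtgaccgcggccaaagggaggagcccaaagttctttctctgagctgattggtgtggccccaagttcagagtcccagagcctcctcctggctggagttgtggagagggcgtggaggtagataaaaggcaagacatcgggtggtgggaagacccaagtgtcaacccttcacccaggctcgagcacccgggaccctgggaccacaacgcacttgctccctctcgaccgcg
Hadha and Hadhb encode the alpha and beta subunits of the mitochondrial trifunctional protein and lie head to head, with start sites 273 bases apart on opposite strands of chromosome 5 and windows that share 228 bases. The Ech1 window held 2 GC boxes, the Hadhb window 4 and the Pdk4 window 0. A GC box was found in 22 of the 27 windows (81.5%). It was in 59.7% of 12223 windows of genes above the low-signal limit and in 35.7% of all 32851 windows. TATAAA was found in 0 of 27, in 8.2% of windows of genes above that limit and in 13.6% of all windows. The PPAR response element is a direct repeat of AGGTCA with a spacer of a single base, and this repeat was in 0 of the 27 windows on either strand and in 0.0396% of all windows. A looser repeat with the fourth base of each hexamer left free, which includes every exact repeat, was in 0 of 27 and in 0.381% of all windows. The AGGTCA hexamer by itself was in the windows of Acadm, Acadvl, Cd36, Cpt1a, Echs1 and Plin2 (6 of 27, 22.2%, against 12.7% of windows of genes above the low-signal limit and 16.3% of all windows). These are letter matches in a short window. With the repeats in 0.0396% and 0.381% of all windows, 0 of 27 does not show that these genes lack the element.

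Relative to CON-LFD tumors, DIO-HFD tumors had higher mean signal for most enzymes of mitochondrial beta-oxidation and for 3 of the 5 enzymes for unsaturated fatty acids. Decr1 and Ech1, which both act on double bonds, had the smallest p-values of the list. No gene of the list passed an adjusted p of 0.05 (limma, Benjamini-Hochberg adjustment over all genes). Across all 19505 genes 1 was called (0.00513%), Atp8a1, a phospholipid flippase, which was lower in DIO-HFD. That count was 60 without DIO-LFD replicate 1 and 66 without both arrays with disagreeing labels, again with no gene of the list. By mean signal, 21 of the 32 genes were higher and 11 lower in DIO-HFD, against 53.8% of all genes higher and 46.1% lower, and the median difference was 0.13 on the log2 scale, against 0.03 over all genes. At an unadjusted p below 0.05, 7 of the 32 were higher (21.9%), against 7.53% of all genes, and 0 were lower, against 5.89% (13.4% of all genes in either direction). The 7 were Decr1, Ech1, Crot, Acaa2, Slc25a20, Acads and Etfa. When each array was instead centred on its median, the median difference of all genes was 0.14, that of the list 0.25, and 26 of the 32 were higher. Without DIO-HFD replicate 5 the median of the list was 0.08 with 19 genes higher, and without DIO-HFD replicate 6, 26 were higher.

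**Figure D1:**
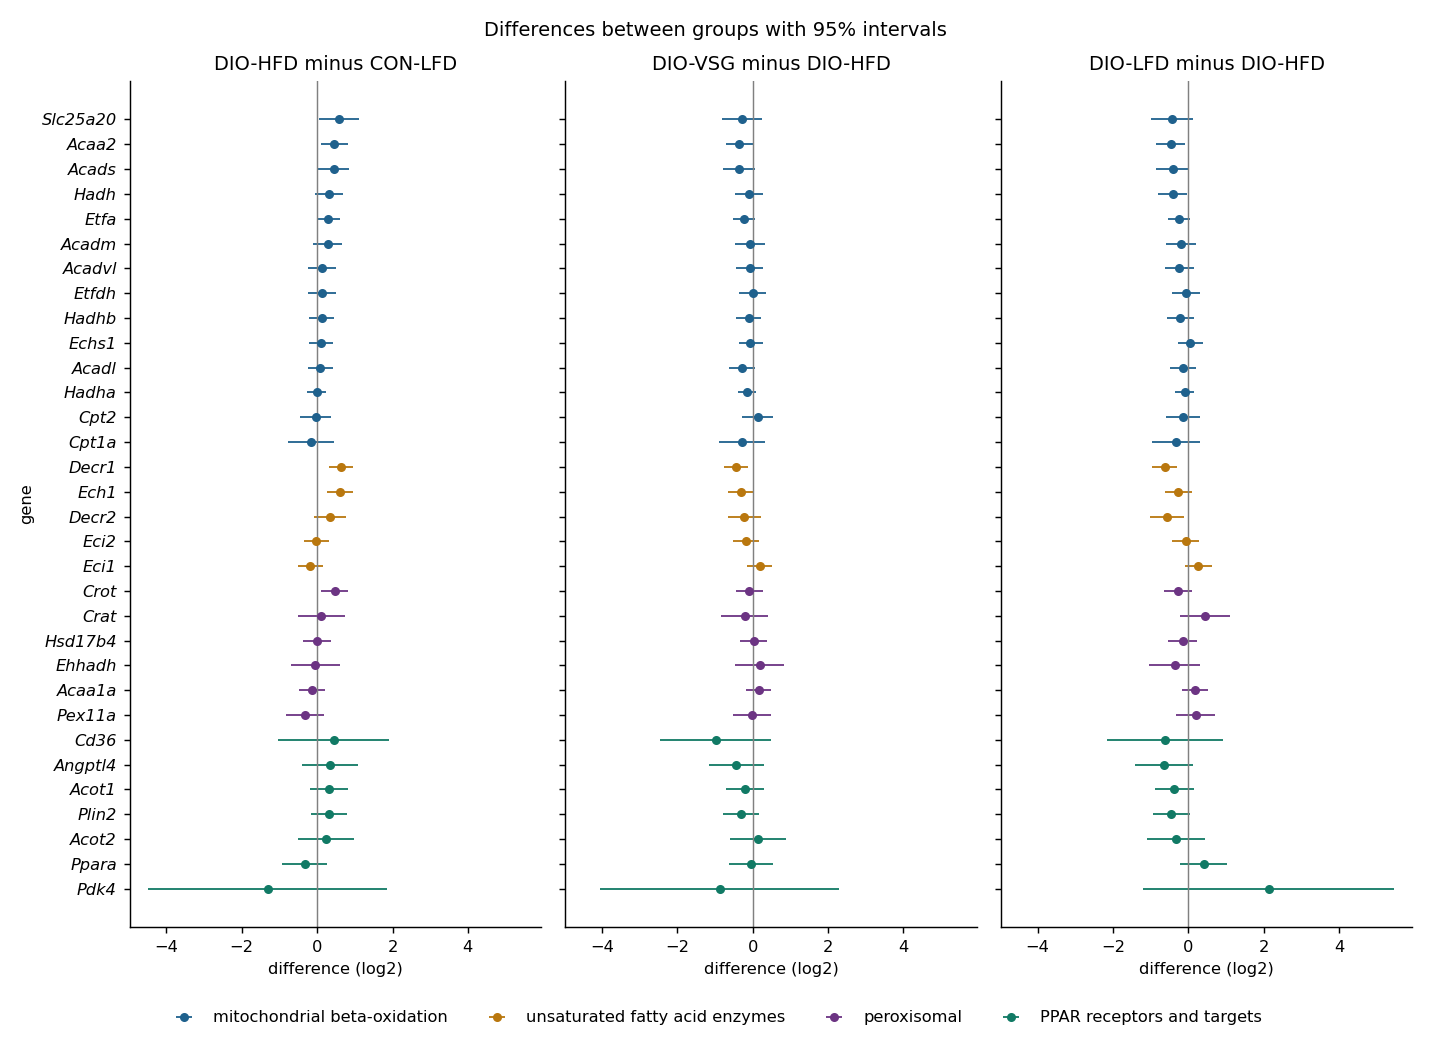
Difference in mean log2 signal (points, with 95% intervals from limma) for each of the 32 genes in 3 comparisons, coloured by set. Most mitochondrial genes lie to the right of 0 in DIO-HFD minus CON-LFD, and the interval of Pdk4 is the widest, from -4.48 to 1.86 in that comparison.

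Both comparisons of weight loss with DIO-HFD used the same DIO-HFD tumors, so their values are given side by side and are not independent of the comparison above. In DIO-VSG, 26 of 32 genes had a lower mean than in DIO-HFD and 6 a higher mean, against 51.6% of all genes lower and 48.3% higher, with a median difference of -0.16 (all genes -0.01). Without DIO-HFD replicate 5, 10 had a higher mean and the median was -0.10. In DIO-LFD, 25 were lower and 7 higher than in DIO-HFD, against 54.3% of all genes lower and 45.7% higher, with a median difference of -0.25 (all genes -0.03). No gene was called in either comparison, in the list or outside it (0%), while 1089 and 1204 genes had an unadjusted p below 0.05. At that unadjusted level 1 of the 32, Decr1, was lower in DIO-VSG (3.12%, against 2.67% of all genes) and 0 were higher (against 2.92%, and 5.58% in either direction). In DIO-LFD 4 were lower (12.5%, against 3.77%), namely Decr1, Decr2, Acaa2 and Hadh, and 0 were higher (against 2.4%, and 6.17% in either direction). Groups did not overlap for 0 of the 32 genes between DIO-VSG and DIO-HFD (0.113% of all genes with DIO-VSG higher and 0.0923% with it lower). When both arrays with disagreeing labels were left out, the median difference of the list between DIO-LFD and DIO-HFD was -0.32.

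The 5 enzymes for unsaturated fatty acids held the 2 genes of the list with the smallest p-values between obese and never-obese mice, Decr1 and Ech1. Decr1, the mitochondrial dienoyl-CoA reductase, had log2 signals from 8.74 to 9.35 in CON-LFD (median 9.15) and from 9.45 to 10.03 in DIO-HFD (median 9.71). In DIO-VSG it ran from 9.0 to 9.61 (median 9.20), and the 5 DIO-LFD tumors gave 9.37, 9.15, 9.16, 8.84 and 8.85. Every DIO-HFD tumor was therefore above every CON-LFD and every DIO-LFD tumor, while DIO-VSG overlapped DIO-HFD. Groups that do not overlap, with DIO-HFD the higher, were found in 0.569% of all genes against CON-LFD and in 0.369% against DIO-LFD, and the opposite order was found in 0.584% and 0.0923%. The mean was 9.70 ± 0.23 (SD, n = 6) in DIO-HFD and 9.07 ± 0.23 (n = 6) in CON-LFD, a difference of 0.64 ± 0.15 (SE), or 1.56-fold, with a limma adjusted p of 0.0904. Relative to DIO-HFD, Decr1 differed by -0.63 ± 0.16 in DIO-LFD (adjusted p = 0.65) and by -0.44 ± 0.15 in DIO-VSG (adjusted p = 0.86). The DIO-LFD and CON-LFD means were both 9.07 (difference 0.01, 95% interval -0.33 to 0.34).

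Across the 34 alternative settings, the Decr1 difference between DIO-HFD and CON-LFD stayed between 0.57 and 0.77. Its limma adjusted p ran from 0.0504, when groups followed the source names, to 0.194. The difference was 0.66 with the skeletal muscle mean as a covariate, 0.63 with the adipocyte mean as a covariate and 0.77 without the 8 muscle-rich tumors. T cell markers were lower in DIO-HFD than in CON-LFD for 10 of 10 genes and macrophage markers for 15 of 17, and their part in the Decr1 difference was not tested.

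**Figure D2:**
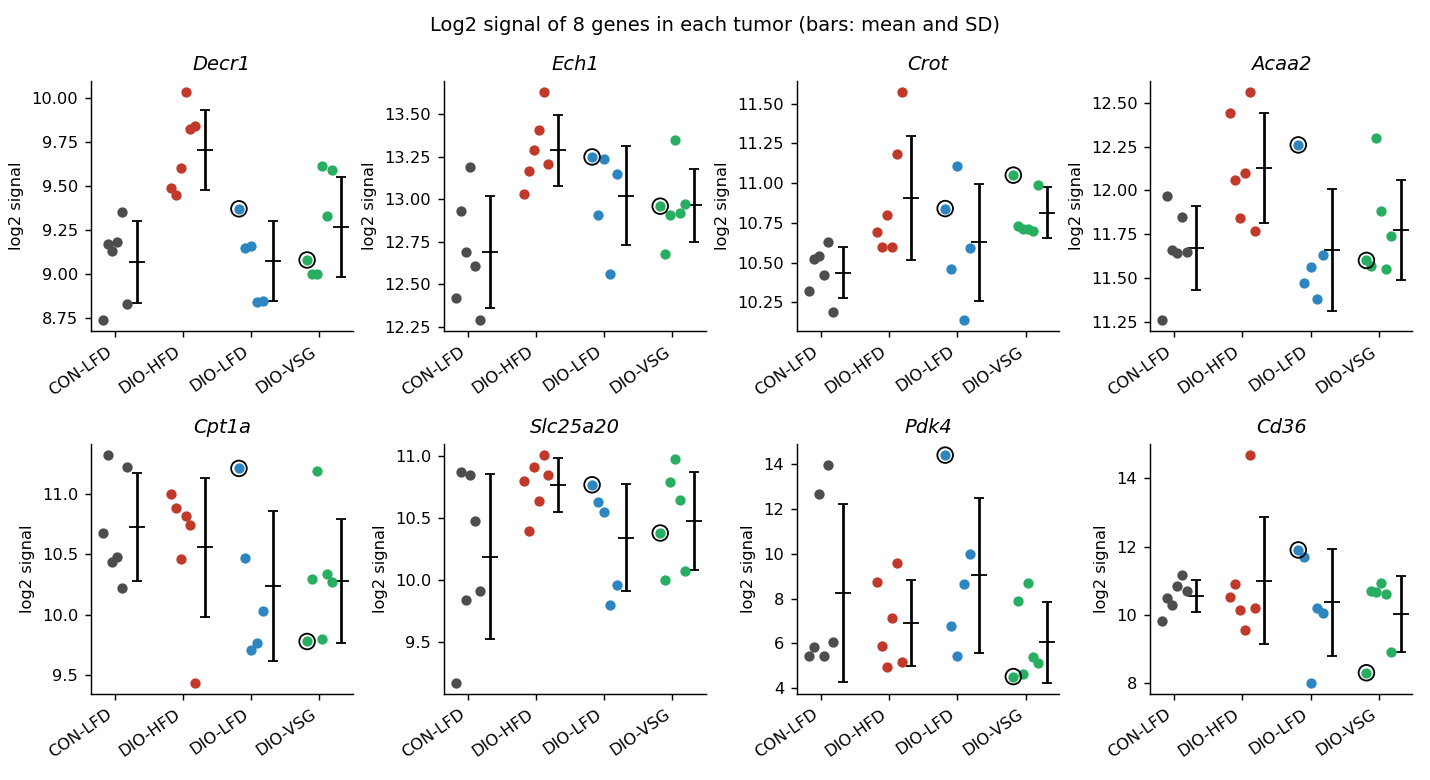
Log2 signal of 8 genes in each tumor by group, 1 point per tumor, with the mean and SD as bars. Circled points are the 2 tumors whose source name gives another group. All 6 DIO-HFD values of Decr1 lie above the CON-LFD and DIO-LFD values, while Pdk4 reaches 12.66 to 14.39 in 3 tumors of CON-LFD and DIO-LFD.

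Ech1 isomerizes dienoyl-CoA in mitochondria and peroxisomes. Its log2 signal ran from 12.29 to 13.19 in CON-LFD (median 12.65) and from 13.03 to 13.63 in DIO-HFD (median 13.25). It ran from 12.68 to 13.35 in DIO-VSG (median 12.94), and the DIO-LFD tumors gave 13.25, 12.91, 13.24, 12.56 and 13.15. A single CON-LFD tumor, replicate 4 at 13.19, reached into the DIO-HFD range, and the groups after weight loss overlapped both others. Ech1 was 0.60 ± 0.16 higher in DIO-HFD than in CON-LFD (1.52-fold, limma adjusted p = 0.115). Over the alternatives its adjusted p ran from 0.0575, when groups followed the source names, to 0.241. Relative to DIO-HFD, Ech1 differed by -0.32 ± 0.16 in DIO-VSG (adjusted p = 0.883) and by -0.27 ± 0.17 in DIO-LFD (adjusted p = 0.842). The DIO-LFD mean of Ech1 was 0.33 ± 0.17 above CON-LFD (95% interval -0.02 to 0.69). Whether Decr1 and Ech1 differ in this respect was not tested.

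Decr2, the peroxisomal dienoyl-CoA reductase, ran from 10.08 to 11.31 in CON-LFD (median 10.6), from 10.68 to 11.30 in DIO-HFD (median 10.94) and from 10.14 to 11.58 in DIO-VSG (median 10.68). The DIO-LFD tumors gave 10.25, 10.33, 10.77, 10.18 and 10.44, and 4 of these 5 were below every DIO-HFD tumor. The DIO-LFD difference from DIO-HFD was -0.57 ± 0.22 (limma adjusted p = 0.701), and the DIO-HFD difference from CON-LFD was 0.34 ± 0.21 (limma adjusted p = 0.499). The latter became 0.15 without the muscle-rich tumors and 0.48 without CON-LFD replicate 4. The enoyl-CoA isomerases Eci1 and Eci2, which shift double bonds, had means slightly below those of CON-LFD in DIO-HFD. Each difference was smaller than the gene's within-group SD over all groups (0.26 for each). Eci1 was 9.05 ± 0.14 in DIO-HFD and 9.23 ± 0.17 in CON-LFD (difference -0.18 ± 0.16), and Eci2 was 11.68 ± 0.23 and 11.71 ± 0.15 (difference -0.03 ± 0.16, and 0.09 when arrays were centred). Centring moved the median difference of all genes from 0.03 to 0.14. Differences of the 5 enzymes ran from -0.18 to 0.64, with a median of 0.34, which was 0.15 without the muscle-rich tumors.

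The carnitine shuttle consists of a transporter and a pair of transferases. Slc25a20, which exchanges acylcarnitine for carnitine across the inner membrane, ran from 9.17 to 10.87 in CON-LFD (median 10.2), from 10.40 to 11.01 in DIO-HFD (median 10.82) and from 10 to 10.98 in DIO-VSG (median 10.52). The DIO-LFD tumors gave 10.77, 10.63, 10.55, 9.80 and 9.96. DIO-HFD values were close together (SD 0.22) while CON-LFD values were spread (SD 0.67), and the groups overlapped. Slc25a20 was 0.58 ± 0.26 higher in DIO-HFD than in CON-LFD (limma adjusted p = 0.314). This was 0.38 without CON-LFD replicate 1, the lowest tumor, and 0.72 without CON-LFD replicate 2. Cpt1a, the rate-limiting transferase of the outer membrane, was 10.56 ± 0.58 in DIO-HFD and 10.73 ± 0.45 in CON-LFD, a difference of -0.17 ± 0.30 that became 0.05 without DIO-HFD replicate 6, and Cpt2, its inner-membrane partner, differed by -0.04 ± 0.20. Relative to DIO-HFD, Cpt1a differed by -0.28 ± 0.30 in DIO-VSG and -0.32 ± 0.31 in DIO-LFD. The DIO-LFD difference of Cpt1a was -0.7 when groups followed the source names and -0.19 without DIO-LFD replicate 3.

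The acyl-CoA dehydrogenases carry out the first step of each round and divide the work by chain length. The short-chain enzyme Acads was 10.11 ± 0.25 in DIO-HFD and 9.67 ± 0.28 in CON-LFD, a difference of 0.44 ± 0.20 (adjusted p = 0.352). The medium-chain enzyme Acadm differed by 0.28 ± 0.19, the very-long-chain enzyme Acadvl by 0.14 ± 0.18 and the long-chain enzyme Acadl by 0.08 ± 0.16. The Acadm difference was 0.13 without CON-LFD replicate 1 and that of Acadvl 0.05 without CON-LFD replicate 2. Without the muscle-rich tumors they were 0.6 and 0.26. None of these 4 differences passed the test, and the interval of Acadl ran from -0.25 to 0.42. In DIO-VSG all 4 means were lower than in DIO-HFD, from -0.08 ± 0.18 (Acadvl) to -0.37 ± 0.20 (Acads), and in DIO-LFD from -0.14 ± 0.17 (Acadl) to -0.41 ± 0.21 (Acads). The DIO-LFD difference of Acadl was -0.42 when groups followed the source names and -0.07 without DIO-LFD replicate 5.

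The subunits of the trifunctional protein, which handles the later steps for long chains, varied little between tumors. Hadha had a within-group SD of 0.15, the lowest of the 32 genes, and Hadhb of 0.26, against 0.40 for the median gene on the array. Hadha was 13.42 ± 0.12 in DIO-HFD and 13.44 ± 0.22 in CON-LFD (difference -0.01 ± 0.12, 95% interval -0.26 to 0.23). Hadhb was 11.58 ± 0.20 and 11.46 ± 0.35 (difference 0.12 ± 0.16, 0.03 without CON-LFD replicate 1 and 0.31 without the muscle-rich tumors). The means of both subunits in DIO-VSG and DIO-LFD were 0.10 to 0.21 below those in DIO-HFD. CON-LFD replicate 5, the tumor richest in muscle markers, was the highest tumor for both subunits, at 13.87 for Hadha and 11.91 for Hadhb.

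Separate matrix enzymes carry out the later steps for shorter chains. Acaa2, the mitochondrial thiolase, ran from 11.26 to 11.97 in CON-LFD (median 11.66), from 11.77 to 12.56 in DIO-HFD (median 12.08) and from 11.55 to 12.30 in DIO-VSG (median 11.67), and the DIO-LFD tumors gave 12.26, 11.47, 11.56, 11.38 and 11.63. DIO-LFD replicate 1, whose source name gives the DIO-HFD group, lay inside the DIO-HFD range, and the other 4 DIO-LFD tumors lay below all of DIO-HFD. Acaa2 was 0.46 ± 0.18 higher in DIO-HFD than in CON-LFD (adjusted p = 0.256), and it differed from DIO-HFD by -0.47 ± 0.19 in DIO-LFD (adjusted p = 0.724) and by -0.36 ± 0.18 in DIO-VSG (adjusted p = 0.883). The DIO-LFD difference was -0.62 without both arrays with disagreeing labels (adjusted p = 0.38). Hadh, the hydroxyacyl-CoA dehydrogenase for medium and short chains, differed by 0.32 ± 0.18 between DIO-HFD and CON-LFD and by -0.41 ± 0.19 between DIO-LFD and DIO-HFD (adjusted p = 0.79). Echs1, the hydratase of the same chain lengths, differed by 0.09 ± 0.15 and 0.05 ± 0.16.

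Of the electron transfer genes, Etfa, the alpha subunit of the flavoprotein, was 13.18 ± 0.28 in DIO-HFD and 12.88 ± 0.18 in CON-LFD, a difference of 0.30 ± 0.14 (adjusted p = 0.347). It differed from DIO-HFD by -0.22 ± 0.14 in DIO-VSG and -0.25 ± 0.15 in DIO-LFD. Etfdh, the dehydrogenase that passes the electrons to ubiquinone, differed by 0.13 ± 0.17, 0.00 ± 0.17 and -0.06 ± 0.18 in the same comparisons. Over the 14 mitochondrial genes, 11 were higher and 3 lower in DIO-HFD than in CON-LFD with a median of 0.13, and 13 of 14 had a lower mean than DIO-HFD in DIO-VSG (median -0.12) and 13 of 14 in DIO-LFD (median -0.23). The mean log2 signal of the 14 genes per tumor was 11.55 ± 0.18 in DIO-HFD, 11.39 ± 0.14 in DIO-VSG, 11.36 ± 0.15 in CON-LFD and 11.32 ± 0.25 in DIO-LFD, and the groups overlapped.

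**Figure D3:**
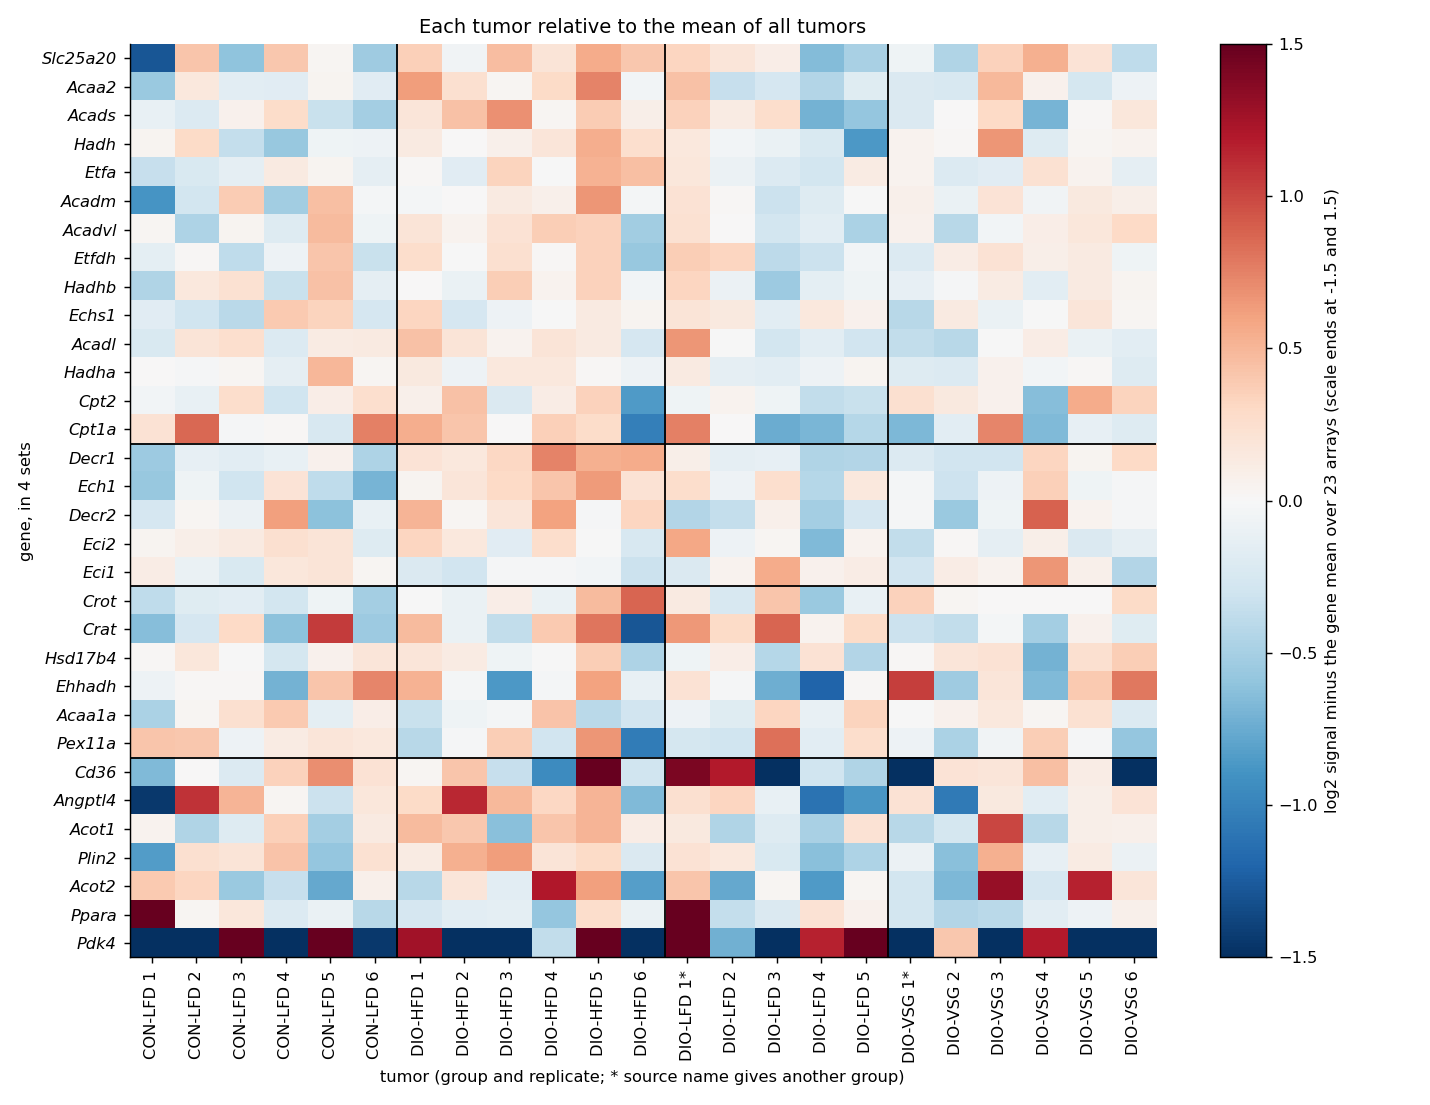
Log2 signal of each of the 32 genes (rows, in 4 sets) in each of the 23 tumors (columns), as the difference from the gene's mean over all tumors. The scale ends at -1.5 and 1.5. Columns differ within a group: DIO-LFD replicate 1 is the highest of its group for 22 of the 32 genes and DIO-LFD replicate 4 the lowest for 16.

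Of the peroxisomal genes, 2 had a higher and 4 a lower mean in DIO-HFD than in CON-LFD, and 1 of the 6, Crot, had an unadjusted p below 0.05 (16.7%, against 13.4% of all genes). Crot converts shortened fatty acids to carnitine esters for export from the peroxisome. It ran from 10.19 to 10.63 in CON-LFD (median 10.47), from 10.60 to 11.57 in DIO-HFD (median 10.74) and from 10.70 to 11.05 in DIO-VSG (median 10.72), and the DIO-LFD tumors gave 10.84, 10.46, 11.11, 10.14 and 10.59. DIO-VSG did not overlap CON-LFD, which was the case with DIO-VSG higher in 0.159% of all genes and lower in 0.154%, and 2 DIO-HFD tumors at 10.60 lay just below the highest CON-LFD tumor at 10.63. Crot was 0.47 ± 0.17 higher in DIO-HFD (adjusted p = 0.228) and 0.38 ± 0.17 higher in DIO-VSG than in CON-LFD (adjusted p = 0.728), and DIO-VSG and DIO-HFD differed by -0.09 ± 0.17.

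Crat, the transferase for short chains in peroxisomes and mitochondria, had a within-group SD of 0.55, which among the 6 peroxisomal genes was exceeded by Ehhadh at 0.58. Its mean was 9.51 ± 0.33 in DIO-LFD, against 8.86 ± 0.22 in DIO-VSG, 9.07 ± 0.75 in DIO-HFD and 8.96 ± 0.67 in CON-LFD. DIO-VSG and DIO-LFD differed by -0.66 ± 0.32 (limma adjusted p = 1), and no gene on the array was called in that comparison (0%). At an unadjusted p below 0.05, Crat was the 1 of the 32 genes lower in DIO-VSG than in DIO-LFD (against 1.37% of all genes) and 0 were higher (against 2.02%, and 3.39% in either direction), while 20 of the 32 means were higher (against 53.6%). Hsd17b4, the bifunctional protein for branched and very long chains, lay at 11.47 ± 0.16 in CON-LFD and 11.47 ± 0.28 in DIO-HFD. Ehhadh, the other bifunctional protein, lay near the limit of low signal, at 5.52 ± 0.49 and 5.46 ± 0.53. Acaa1a, the peroxisomal thiolase, differed by -0.14 ± 0.16 between DIO-HFD and CON-LFD, and Pex11a, which acts in peroxisome division, by -0.32 ± 0.24. The Pex11a difference became -0.14 without DIO-HFD replicate 6 and -0.48 without DIO-HFD replicate 5. Acaa1a has a near-identical copy, Acaa1b, and its signal is uncertain to that extent. Over the 6 peroxisomal genes the median differences were -0.03, 0.01 and 0.01 in DIO-HFD against CON-LFD, DIO-VSG against DIO-HFD and DIO-LFD against DIO-HFD. The first was 0.09 when arrays were centred, which moved the median of all genes from 0.03 to 0.14.

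Among PPAR receptors and targets, the signal of the targets spread widely within groups. None of the 7 genes had an unadjusted limma p below 0.05 in any comparison with DIO-HFD (0%). Of all genes, 13.4% did between DIO-HFD and CON-LFD, 5.58% between DIO-VSG and DIO-HFD and 6.17% between DIO-LFD and DIO-HFD. With so few genes, 0 of 7 does not set them apart from these shares. Ppara, the receptor of oxidative tissues, was below the limit of low signal at a mean of 3.07 over all tumors, as was Acot1, an acyl-CoA thioesterase, at 3.9. The within-group SD of the 7 genes had a median of 0.66, against 0.29 for the mitochondrial genes, 0.26 for the enzymes of unsaturated fatty acids, 0.36 for the peroxisomal genes and 0.40 for all genes.

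Plin2, which coats lipid droplets, was bright in every tumor and ran from 13.92 to 15.19 in CON-LFD (median 14.98), from 14.55 to 15.39 in DIO-HFD (median 15) and from 14.13 to 15.30 in DIO-VSG (median 14.67), and the DIO-LFD tumors gave 14.98, 14.92, 14.53, 14.13 and 14.30. All groups overlapped. The Plin2 mean was 0.31 ± 0.23 higher in DIO-HFD than in CON-LFD (limma adjusted p = 0.587). This was 0.16 without CON-LFD replicate 1 and at most 0.41 without any other array. Plin2 differed from DIO-HFD by -0.30 ± 0.23 in DIO-VSG and -0.45 ± 0.24 in DIO-LFD. Angptl4, a secreted inhibitor of lipoprotein lipase that is also induced by hypoxia, differed by 0.34 ± 0.36, -0.44 ± 0.36 and -0.65 ± 0.37 in the same comparisons. The first was 0.05 without CON-LFD replicate 1, where Angptl4 lay at 10.99, and 0.56 without CON-LFD replicate 2. Acot2, the mitochondrial thioesterase, differed by 0.24 ± 0.36, 0.15 ± 0.36 and -0.32 ± 0.38. These were 0.02 without DIO-HFD replicate 4, -0.07 without DIO-VSG replicate 3 and -0.10 without DIO-HFD replicate 4. Acot1 and Acot2 are near-identical copies, so their probe sets may share signal, although their means over all tumors were far apart (3.9 and 10.81). How much signal they share was not tested.

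Pdk4, a kinase that shuts off pyruvate dehydrogenase when fat is burned, had the widest range of the list, from 4.52 to 14.39. In CON-LFD it ran from 5.42 to 13.97 (median 5.93), in DIO-HFD from 4.95 to 9.60 (median 6.51) and in DIO-VSG from 4.52 to 8.68 (median 5.26), and the DIO-LFD tumors gave 14.39, 6.77, 5.44, 8.65 and 9.97. The highest values were in muscle-rich tumors, namely DIO-LFD replicate 1 and CON-LFD replicates 5 (13.97) and 3 (12.66). Over the 23 tumors Pdk4 followed the mean of the muscle markers, with Pearson's r = 0.85 (two-sided permutation p = 1e-05, the smallest that 100000 permutations can give, adjusted p = 0.00032 over 64 relations) and Spearman's rho = 0.64 (permutation p = 0.00135, adjusted p = 0.0592). Without the 2 tumors farthest from the median muscle mean r was 0.76, and for deviations from the group means it was 0.84. DIO-HFD replicate 5 departed from this, with Pdk4 at 9.60 and a muscle mean of 4.96, and it was the tumor rich in adipocyte markers. Between groups, Pdk4 differed by -1.31 ± 1.53 in DIO-HFD against CON-LFD, which became -0.16 without CON-LFD replicate 5 and 0.87 without the muscle-rich tumors. The difference of DIO-LFD from DIO-HFD was 2.13 ± 1.60, which became 0.79 without DIO-LFD replicate 1 and -0.91 when groups followed the source names.

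Cd36, the fatty acid translocase of adipocytes, macrophages and endothelium, ran from 9.83 to 11.18 in CON-LFD (median 10.6), from 9.54 to 14.68 in DIO-HFD (median 10.36) and from 8.30 to 10.94 in DIO-VSG (median 10.64), and the DIO-LFD tumors gave 11.90, 11.68, 8.01, 10.19 and 10.04. The value of 14.68 belonged to DIO-HFD replicate 5. The other 5 DIO-HFD tumors lay between 9.54 and 10.90. Cd36 followed the adipocyte mean over the 23 tumors with Pearson's r = 0.84 (permutation p = 1e-05, again the smallest possible, adjusted p = 0.00032) and Spearman's rho = 0.62 (permutation p = 0.00185, adjusted p = 0.0592), and r was 0.59 without the 2 tumors farthest from the median. Its difference between DIO-HFD and CON-LFD was 0.44 ± 0.71, and -0.29 without DIO-HFD replicate 5. Relative to DIO-HFD it differed by -0.98 ± 0.71 in DIO-VSG and by -0.63 ± 0.75 in DIO-LFD, and these were -0.24 and 0.11 without that tumor. No other gene of the 32 had an adjusted p below 0.05 against the muscle or adipocyte mean by either coefficient, with 64 relations computed.

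**Figure D4:**
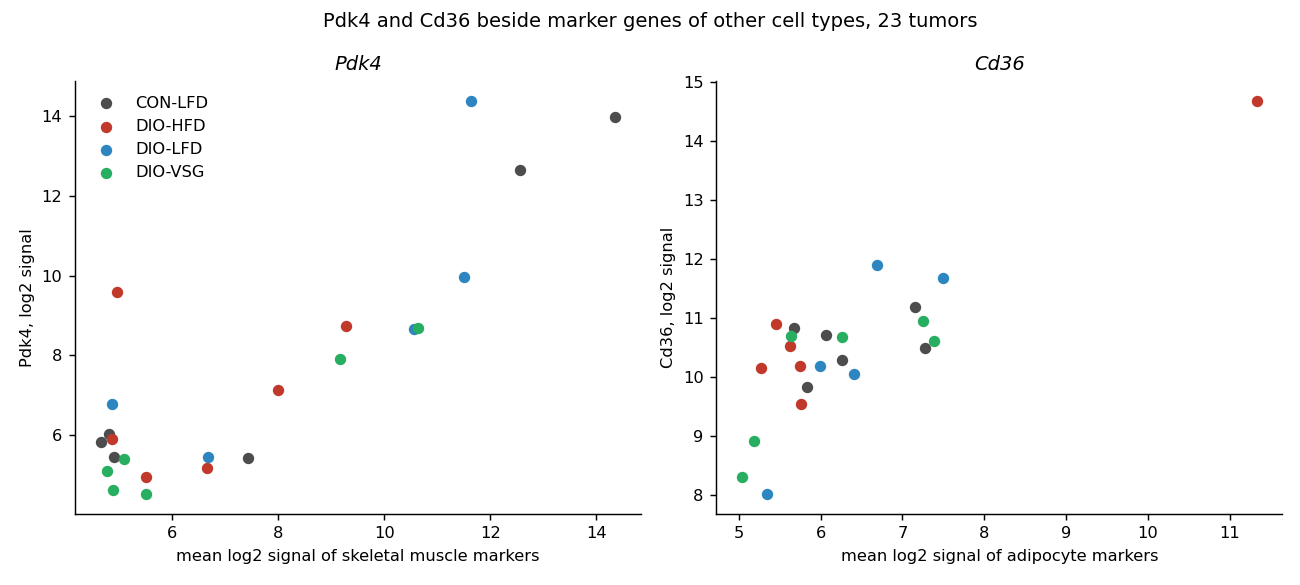
Log2 signal of Pdk4 against the mean of 28 skeletal muscle markers (left) and of Cd36 against the mean of 19 adipocyte markers (right), 1 point per tumor, coloured by group. Pdk4 is highest in the tumors with the highest muscle means, and the Cd36 value of 14.68 belongs to the tumor with an adipocyte mean of 11.33.

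The tumors within a group were not equally placed across the 32 genes. DIO-LFD replicate 1 was the highest of its group for 22 of the 32 genes (68.8%), against 19.3% of all genes, and its values lay within the DIO-HFD range for 24 of the 32 and within the range of the other DIO-LFD tumors for 9. Its source name gives DIO-HFD, its muscle mean was 11.64 and its T cell mean of 4.91 was the lowest of all tumors, and the part of each was not tested. DIO-VSG replicate 1, whose source name gives DIO-LFD, was within the range of the other DIO-VSG tumors for 23 of the 32. It was the highest of its group for 3 (9.38%, against 14.7% of all genes) and the lowest for 6 (18.8%, against 17.1%). Within the range of DIO-LFD replicates 2 to 5 it lay for 21. The share of all genes within these ranges is not given here, so the within-range counts of both tumors do not measure likeness to a group. DIO-HFD replicate 5 was the highest of its group for 15 genes (46.9%, against 14.8% of all genes) and DIO-HFD replicate 6 the lowest for 14 (43.8%, against 22% of all genes). DIO-LFD replicate 4 was the lowest of its group for 16 (50%, against 16.6%).

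Tumors of formerly obese mice were also set against those of never-obese mice. In DIO-VSG against CON-LFD, 21 of 32 genes had a higher mean, against 54% of all genes (45.9% lower), with a median difference of 0.05, and 1 gene, Crot, had an unadjusted p below 0.05 (3.12%, against 3.57% of all genes higher, 3.1% lower and 6.68% in either direction). In DIO-LFD against CON-LFD, 14 were higher and 18 lower with a median of -0.05 (49.5% of all genes higher and 50.4% lower), and 0 had an unadjusted p below 0.05 (2.83% of all genes higher, 2.6% lower and 5.43% in either direction). Without the 2 arrays whose labels disagree, 8 of the 32 were higher in DIO-LFD. In DIO-VSG 14 of the 32 were higher without DIO-VSG replicate 3 and 16 without DIO-VSG replicate 5. No gene on the array was called in either comparison (0%), while 1302 and 1060 genes had an unadjusted p below 0.05.

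A further 50 genes of the pathway were read in the same way, and 46 were measured. Between DIO-HFD and CON-LFD 23 had a higher and 23 a lower mean, and none was called in any comparison. At an unadjusted p below 0.05, 6 were higher and 1 lower (15.2% of the 46, against 13.4% of all genes). Scp2, which encodes the peroxisomal thiolase for branched chains together with a sterol carrier protein, was 10.25 ± 0.22 in DIO-HFD and 9.65 ± 0.27 in CON-LFD (difference 0.60 ± 0.16, limma adjusted p = 0.11). Acad11 and Acad12, of the acyl-CoA dehydrogenase family, were 0.70 ± 0.28 and 0.48 ± 0.19 higher (adjusted p = 0.27 and 0.276), and Acsl6, an acyl-CoA synthetase, 0.52 ± 0.21 higher (adjusted p = 0.261). Pdk2, another pyruvate dehydrogenase kinase, was 6.86 ± 0.75 in DIO-HFD and 8.14 ± 1.53 in CON-LFD (difference -1.27 ± 0.56, adjusted p = 0.316). In DIO-LFD relative to DIO-HFD, 20 were higher and 26 lower, and the smallest p belonged to Abcd3, a peroxisomal transporter of fatty acids, at 10.87 ± 0.31 against 11.57 ± 0.30 (difference -0.70 ± 0.19, adjusted p = 0.65). In DIO-VSG relative to DIO-HFD, 17 were higher and 29 lower, and Abcd3 differed by -0.39 ± 0.18 (adjusted p = 0.883). Fabp3, a fatty acid binding protein of heart and skeletal muscle, had the largest difference, 2.21 ± 1.26 in DIO-LFD relative to DIO-HFD (adjusted p = 0.831), in the group with the highest mean of muscle markers.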

How the data were processed

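Total RNA of 23 tumors had been hybridized to Mouse Clariom S HT arrays. The authors obtained the deposited log2 values with the SST-RMA method of Transcriptome Analysis Console 4.0.2, and they were used without further scaling. Array medians ran from 6.12 to 6.5. Precision is limited by the number of arrays. Of 22206 probe sets, 19572 had 1 symbol, 0 had several and 2634 were unnamed here, and 55 genes were read from the brightest of several probe sets. The limit of low signal, 4.77, is the 40th percentile of probe set means. Groups came from the titles. All 19505 genes were fitted with limma 3.58.1 (R 4.3.3) on the 23 arrays with a mean per group, eBayes (19 residual and 4 prior degrees of freedom) and two-sided Benjamini-Hochberg adjustment per comparison. Correlations used permutations in scipy 1.17.1.

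The members and lists were chosen with earlier results of these data known. All members are described, and other pathway genes were named from up to 4 with the smallest p and 2 with the largest difference. Of the markers fixed, 28 of 28 muscle, 19 of 21 adipocyte, 8 of 8 brown adipocyte, 17 of 18 macrophage, 10 of 14 T cell, 11 of 12 endothelial and 8 of 8 epithelial genes were measured. The alternatives changed the filter, arrays, variance model, scaling, covariates, the replicate number as a block and the labels of 2 arrays, and left out each array in turn. The fit was tested on simulated data with 50 genes changed by each log2 difference. Between DIO-HFD and CON-LFD it recovered 12% of genes changed by 0.5, 68% by 1 and 94% by 2. These shares were 14%, 66% and 98% between DIO-VSG and DIO-HFD, and 12%, 58% and 98% between DIO-LFD and DIO-HFD. The fit also called 8, 7 and 4 unchanged genes in the same order. Most differences of 0.5 were thus missed, so a gene not called here may still differ. Replicates are separate tumors by label.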

Additional observations from a re-analysis of the deposited data

Results flagged for a closer look

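Gaps of a tumor from the others of its group were tested in 128 gene and group combinations, and 12 exceeded the 95% critical value of Dixon's test, where chance gives about 6.4. In DIO-HFD, replicate 6 had the lowest Cpt1a (9.44, others 10.46 to 11) and Acadvl (10.36, others 10.93 to 11.25). DIO-HFD replicate 5, rich in adipocyte markers, had the highest Acadm (11.54, others 10.85 to 11.01) and Cd36 (14.68, others 9.54 to 10.90). Acot1, below the limit of low signal, was lowest in DIO-HFD replicate 3 (3.27, others 4.01 to 4.41) and highest in DIO-VSG replicate 3 (4.90, others 3.48 to 3.99). CON-LFD replicate 5, richest in muscle markers, had the highest Hadha (13.87, others 13.23 to 13.40), and CON-LFD replicate 1 the highest Ppara (4.59, others 2.66 to 3.25), which was also below that limit. In DIO-VSG, Hadh was highest in replicate 3 (13.32, others 12.46 to 12.71), Hsd17b4 lowest in replicate 4 (10.74, others 11.46 to 11.81) and Angptl4 lowest in replicate 2 (11.38, others 12.28 to 12.65). In DIO-LFD, Acaa2 was highest in replicate 1 (12.26, others 11.38 to 11.63), the tumor whose source name gives DIO-HFD.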

How the results depend on the processing

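No gene of the list passed an adjusted p of 0.05 under any of 34 alternatives, and 23, 19 and 25 of the 32 kept the sign of their difference in DIO-HFD against CON-LFD, DIO-VSG against DIO-HFD and DIO-LFD against DIO-HFD. The count of all genes called between DIO-HFD and CON-LFD (1) was 5 with only these groups fitted, 17 with an intensity trend and robust prior, 3 after quantile normalization, 2 with the muscle mean as a covariate, 5 without the muscle-rich tumors, 66 without the 2 arrays whose labels disagree and 196 when groups followed the source names. Leaving out each array in turn gave 0 to 60: 60 without DIO-LFD replicate 1, 6 without CON-LFD replicate 4 or DIO-LFD replicate 5, 3 without DIO-HFD replicate 2, 2 without DIO-HFD replicate 4 or CON-LFD replicate 1, and 0 without CON-LFD replicates 2, 5 or 6, DIO-HFD replicates 1, 3 or 5 or DIO-VSG replicates 5 or 6. The source names also gave 9 genes between DIO-LFD and DIO-HFD (0 as reported), and fitting 2 groups gave 1 between DIO-VSG and CON-LFD (0 as reported). With the replicate number as a block 12 genes were called between DIO-HFD and CON-LFD. Deviations of same-numbered tumors from their group means correlated from -0.28 to 0.34 over 33 pairs, 7 of them above 0.1. These correlations alone cannot show whether the numbers pair the tumors. The cause of these shifts was not tested.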
